A study of Mus musculus with 2 samples.

Results

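The TNF superfamily comprises trimeric ligands, their receptors and the adaptor proteins that the receptors recruit. In colonic eosinophils of naive mice, 59 genes of 23477 in the deposited table belong to it by symbol. They were taken as every gene whose symbol begins with Tnf or with Traf and a digit, plus Fas, Fasl, Lta, Ltb, Ltbr, Birc2, Birc3, Ripk1 and Ripk3. They fall into 15 ligands, 22 receptors, 7 TRAF adaptors, 3 TRAF-interacting proteins, 8 Tnfaip genes and 4 further signalling genes. The Tnfaip group, taken by symbol, holds TNF-induced genes and relatives of Tnfaip8.

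Eosinophils are granulocytes that live in the gut wall in health. They were sorted by flow cytometry from enzyme-digested colons of wild-type C57BL6 mice, in 1 group of 2 samples with no treatment. Each sample was made into 3 technical libraries by CEL-Seq, a method that sequences tags from the 3′ ends of messenger RNAs. No label used here gives the sort gate, the numbers of cells and mice, or the animals' age.

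The table holds 1 pooled value per transcript, the authors' mean over the 6 libraries, so there are no values per sample, no SD and no test between samples. Levels are RPKM, which divides the reads by transcript length and library size and are given with exact 95% Poisson intervals of the reads in parentheses. These intervals cover counting error only. The kept transcripts of all genes held 7692119 reads over the 6 libraries, and RPM below means reads per 1000000 of those. CEL-Seq reads near the 3′ end, so reads need not rise with transcript length, and RPM is the alternative without length. For a gene listed at 0, no interval is given, and a limit of 3 reads, or 0.390 RPM, is used.

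In this family, ligands such as TNF bind receptors that fall into death domain receptors, receptors that bind TRAF adaptors directly, and decoys without a signalling tail. TRAFs and the ubiquitin ligases cIAP1 and cIAP2 (genes Birc2 and Birc3) pass the signal to NF-kB, while Ripk1, Ripk3 and caspase-8 can turn it into cell death. NF-kB in turn induces genes that shut the pathway off, among them Tnfaip3 (A20) and Nfkbia. In the gut, these signals bear on granulocyte survival, lymphoid tissue formation and inflammation.

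The transcript with the most Fas reads was a short form, which ends before the exons that encode the transmembrane and death domains of this receptor. The coding sequences of the short form and of the start of the full-length form are shown because the level of Fas rests on which of them is read. Letters in lower case are the 184 coding bases of exons 1 and 2, identical in both forms. Capitals are what follows: in the short form the last 5 coding bases and the stop codon, in the full-length form the first 60 bases of its exon 3.
Fas short: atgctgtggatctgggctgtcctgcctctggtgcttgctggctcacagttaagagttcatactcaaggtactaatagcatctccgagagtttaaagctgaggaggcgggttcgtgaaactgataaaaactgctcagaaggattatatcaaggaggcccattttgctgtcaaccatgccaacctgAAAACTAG
Fas full-length: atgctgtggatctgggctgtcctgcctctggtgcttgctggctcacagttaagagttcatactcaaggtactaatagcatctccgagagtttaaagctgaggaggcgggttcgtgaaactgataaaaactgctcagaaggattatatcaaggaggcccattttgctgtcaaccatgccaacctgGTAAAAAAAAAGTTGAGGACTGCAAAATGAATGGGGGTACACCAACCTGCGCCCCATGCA
Both were read from GENCODE M21 transcripts (mm10, plus strand of chromosome 19) matched to the table's RefSeq accessions.

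The short Fas transcript (NM_001146708, chr19:34290659-34309350 in the table's mm10 coordinates) had 1022 reads and an RPKM of 120.5 (113 to 128). The full-length transcript (NM_007987, chr19:34290659-34327770) had 94 reads and an RPKM of 3.51 (2.84 to 4.29). Of the reads listed for the 2 transcripts, 91.6% (89.8 to 93.1, exact binomial) were therefore in the short one. The ratio was 10.9 (8.80 to 13.6) by reads and 34.3 (27.8 to 42.9) by RPKM, which divides by length.

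In GENCODE M21 the short form has 3 exons, 532 bases and 63 codons, against 9 exons, 1481 bases and 327 codons for the full-length form. Its last exon, chr19:34309036-34309350, lies in the intron between exons 2 and 3 of the full-length form. The sequence AATAAA, the common polyadenylation signal, occurs in the last 50 bases of neither transcript, on the transcript strand. The longest run of A was 5 bases in the short transcript and 9 in the full-length one. These values cover the transcripts only. The genomic sequence past the end of the short form was not available, so whether its reads began at a run of A there was not tested. Exons 1 and 2 are common to both, and how reads there were assigned is not stated in the sources used here. On the full-length transcript alone, Fas would rank 15 of 59 by RPKM in place of 2.

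**Figure D1:**
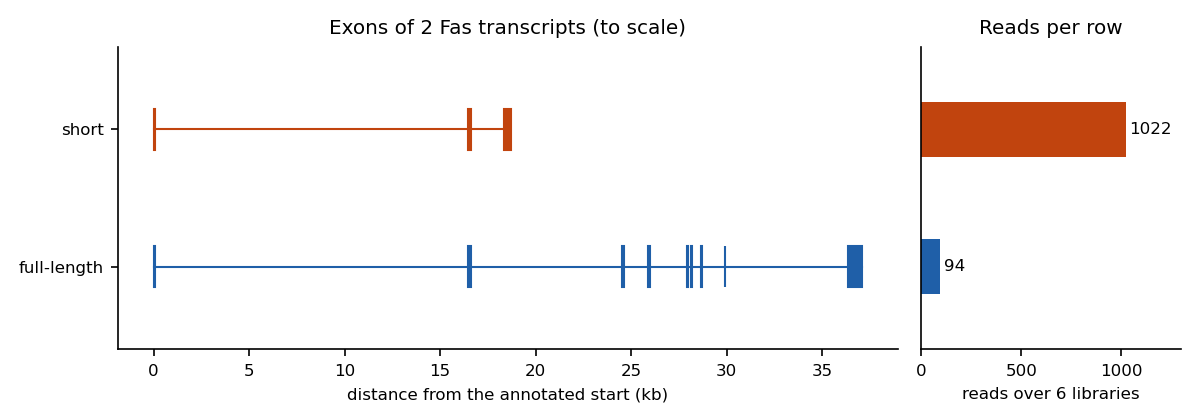
Exons of the short and full-length Fas transcripts, drawn to scale as distance from the annotated start in kilobases (left), and the reads listed for each over the 6 libraries (right). The short form carries 1022 reads and the full-length form 94.

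Fas was the 1 gene among the 13 of the family with several transcripts whose transcripts end at different 3′ positions. In the other 12, the listed transcripts share their 3′ end, where CEL-Seq reads, and the split between them cannot be read as isoform use. Ripk3, Tnfaip1 and Tnfsf13 each list the same read total for 2 transcripts. Of the 13 genes, 5 list reads on a single transcript, 7 on 2 or more and Fasl on none. Tnfaip3 lists 1332 reads on one transcript and 790 on another that starts further downstream.

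Across the family, 25 of 59 genes (42.4%) reached an RPKM of 1, against 31.0% of all genes in the table. An RPKM of 10 was reached by 7 family genes, with 8.76% of all genes past it, and an RPKM of 100 by 2, with 1.28% of all genes past it. With Fas taken at its full-length transcript, the counts were 25, 6 and 1 at an RPKM of 1, 10 and 100. The family's median RPKM was 0.463 and that of all genes 0.186. A further 27 family genes lay above 0 and under 1, and 7 were listed at 0, as were 31.0% of all genes.

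**Figure D2:**
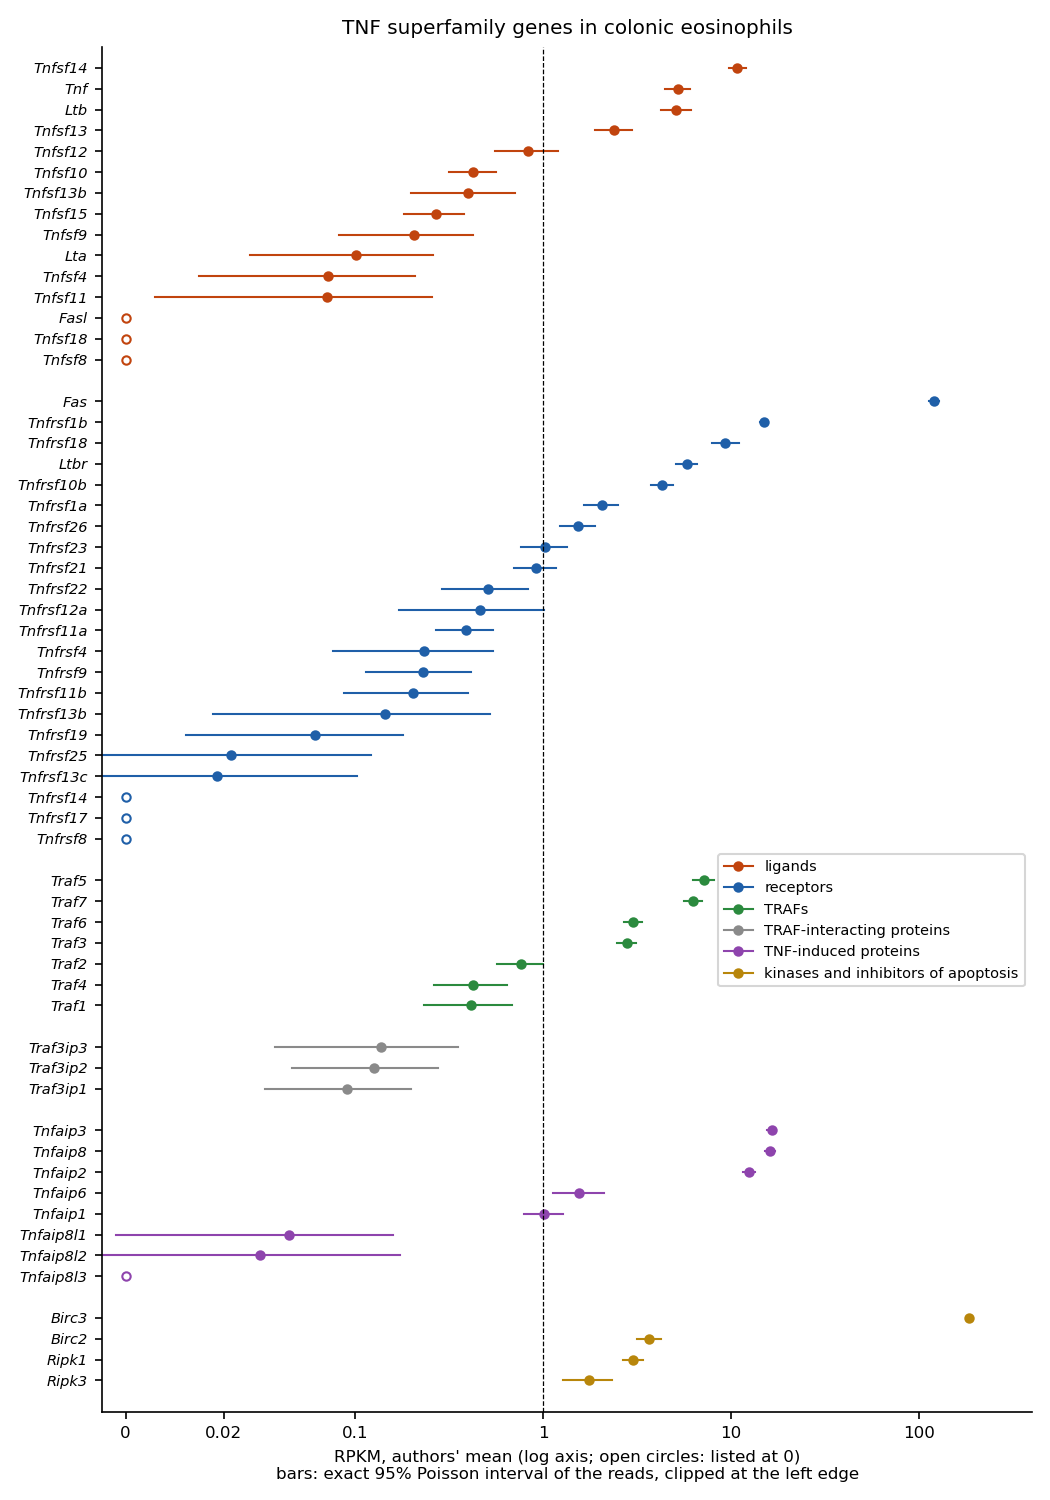
RPKM of the 59 TNF superfamily genes on a log axis, grouped by role, with exact 95% Poisson intervals of the reads as bars, open circles for genes listed at 0 and a dashed line at an RPKM of 1. By RPKM, Birc3 at 184 and Fas at 120.5, the value of its short form, stand apart from the other genes, which lie at or under 16.5. Without length Fas does not stand apart: at 133 RPM it lies under Tnfrsf1b at 184.5 RPM and Tnfaip3 at 173 RPM.

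Birc3, the NF-kB-inducible inhibitor of apoptosis cIAP2, was the highest of the family. It had 8438 reads, an RPKM of 184 (180.3 to 188) and 1097 RPM, and ranked 157 among all genes by RPKM (NM_007464, chr9:7848701-7873170, minus strand). Its neighbour and close relative Birc2, which encodes cIAP1, had 196 reads and an RPKM of 3.67 (3.17 to 4.22). Birc3 was thus 50.2-fold higher by RPKM (43.6 to 58.1) and 43.1-fold higher by reads (37.4 to 49.9). Of the last 500 bases of each gene, 2.15% of the sequence words of Birc3 and 0% of those of Birc2 occur in another gene. RefSeq lists each of the 2 symbols as a synonym of the other gene, so the genes here are those of the accessions.

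The death-signalling kinase genes were lower. Ripk1, the kinase that receptor complexes recruit, had 276 reads and an RPKM of 3.02 (2.67 to 3.40). Ripk3, which drives necroptosis, had 45 reads and an RPKM of 1.75 (1.27 to 2.34). Ripk1 exceeded Ripk3 1.73-fold by RPKM (1.26 to 2.43) and 6.13-fold by reads (4.46 to 8.60). An exon of the transcript model Gm17084 overlaps the 3′ end of Ripk1 on the same strand, so part of its reads could belong there.

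Among the 15 ligands, 4 (26.7%) reached an RPKM of 1, near the 31.0% of all genes. Tnfsf14 (LIGHT), a ligand of the lymphotoxin beta receptor and of HVEM, led with 351 reads and an RPKM of 10.8 (9.72 to 12.0), at chr17:57189492-57194186. It was 2.08-fold above Tnf by RPKM (1.72 to 2.52).

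Tnf, the founding cytokine of the family, had 164 reads and an RPKM of 5.20 (4.44 to 6.06), and the membrane lymphotoxin chain Ltb 119 reads and 5.12 (4.24 to 6.12). These 2 genes did not differ by RPKM beyond counting error, with a ratio of 1.02 (0.799 to 1.30), while by reads Tnf was 1.38-fold higher (1.08 to 1.76). Lta, which lies beside them on chromosome 17 and encodes the partner chain of Ltb, had 4 reads and an RPKM of 0.101 (0.0276 to 0.260).

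Tnfsf13 (APRIL), a survival factor for plasma cells, had 80 reads and an RPKM of 2.38 (1.89 to 2.96). All of its searched sequence also occurs in another annotated gene, the read-through transcript Tnfsfm13, which is in the table under another symbol at 0 reads, and an antisense gene, Tnfsf13os, overlaps its end. Its value is therefore uncertain. Tnfsf13b (BAFF), the related B cell factor, had 11 reads and an RPKM of 0.398.

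The ligands under 1 began with Tnfsf12 (TWEAK) at 0.831 (0.557 to 1.19), whose interval spans the threshold. Tnfsf10 (TRAIL) had 0.426, Tnfsf15 (TL1A) 0.268 and Tnfsf9 (the 4-1BB ligand, a T cell costimulator) 0.205. Tnfsf4 (the OX40 ligand) and Tnfsf11 (RANKL) rested on 3 and 2 reads. Fasl, Tnfsf8 and Tnfsf18 were listed at 0. The 15 ligands together held 852 reads.

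Of the 22 receptors, 8 (36.4%) reached an RPKM of 1, near the 31.0% of all genes. After the short form of Fas, the highest by RPKM was Tnfrsf1b, the TNF receptor without a death domain, at chr4:145212368-145246870. It had 1419 reads and an RPKM of 15 (14.2 to 15.8). The full-length Fas transcript, at 3.51, lay below Tnfrsf1b, and even the short one had fewer reads, 1022. Tnfrsf1a, the TNF receptor with a death domain, had 93 reads and 2.05 (1.66 to 2.52). The ratio of Tnfrsf1b to Tnfrsf1a was 7.30 by RPKM (5.92 to 9.11) and 15.3 by reads (12.4 to 19.03).

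Tnfrsf18 (GITR), a receptor best known on T cells, had 143 reads and an RPKM of 9.35 (7.88 to 11.0). The gene Gm16008 overlaps its 3′ end on the opposite strand, and the labels do not say whether counting used strand. The T cell marker genes stood lower. An RPKM of 1 was reached by 3 of 7 (42.9%), against 31.0% of all genes. All 7 summed to 5.0, none was at 0, and Cd3e had 1.44 and Cd4 1.56. The part of T cells in the Tnfrsf18 value was not tested.

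The lymphotoxin beta receptor gene Ltbr, which signals to the non-canonical NF-kB pathway, had 237 reads and an RPKM of 5.80 (5.08 to 6.59). Tnfrsf10b, the death domain receptor for TRAIL, had 229 reads and 4.31 (3.77 to 4.90). Tnfrsf26, Tnfrsf23 and Tnfrsf22 lie side by side on chromosome 7, and the latter 2 encode decoy receptors for TRAIL. They had RPKM values of 1.54 (1.24 to 1.90), 1.02 (0.761 to 1.34) and 0.509 (0.291 to 0.827). Of the searched sequence words of Tnfrsf23 and Tnfrsf22, 30.5% and 30.9% occur in another gene, so reads could have passed between copies. For Tnfrsf10b and Traf5 the shares were 21.5% and 13.1%.

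Receptors under 1 included Tnfrsf21 (DR6) at 0.918 (0.704 to 1.18), Tnfrsf12a (Fn14, the TWEAK receptor) at 0.463 and Tnfrsf11a (RANK) at 0.390. Receptors known from activated T cells were low, with Tnfrsf4 (OX40) at 0.233 from 5 reads and Tnfrsf9 (4-1BB) at 0.230 from 11, and Tnfrsf8 (CD30) was listed at 0. Of the B lineage receptors, Tnfrsf13b (TACI) had 2 reads, Tnfrsf13c (the BAFF receptor) 1 and Tnfrsf17 (BCMA) none. Tnfrsf11b (osteoprotegerin) had 8 reads, Tnfrsf19 (TROY) 3 and Tnfrsf25 (DR3) 1. Tnfrsf14 (HVEM) was listed at 0.

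Ligand and receptor values were set side by side for 18 known pairs. The pairs were selected after values were seen, and the counts depend on that choice. Tnfsf10 with its decoy receptors Tnfrsf23 and Tnfrsf22, for example, was not among them. Some genes, such as Tnf, Tnfsf14 and Ltbr, occur in more than 1 pair, so the pairs are not independent. Of all single genes, 31.0% reached an RPKM of 1. Both partners reached an RPKM of 1 in 4 pairs: Tnf with Tnfrsf1a, Tnf with Tnfrsf1b, Ltb with Ltbr and Tnfsf14 with Ltbr. The receptor alone did so in 4 pairs, among them Fasl with Fas and Tnfsf18 with Tnfrsf18, where the ligand was listed at 0. The Fas value here is that of the short form. The full-length form, at 3.51, is also above 1 but below Tnfrsf18 at 9.35. The ligand alone did so in 3 pairs, Tnfsf14 with Tnfrsf14 and Tnfsf13, whose value is uncertain, with Tnfrsf13b and Tnfrsf17. In 7 pairs neither partner reached 1. Tnfsf14 thus had one of its receptors above the threshold and the other at 0.

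**Figure D3:**
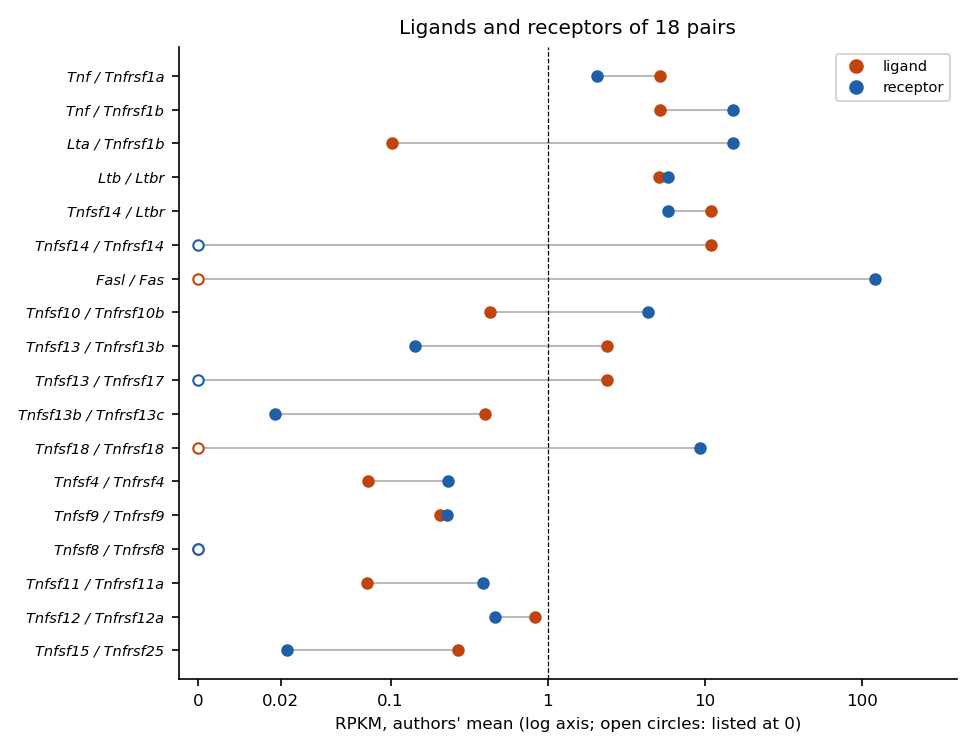
RPKM of ligand and receptor in 18 known pairs on a log axis, 1 line per pair, with open circles for genes listed at 0 and a dashed line at an RPKM of 1. Both points lie right of the line in 4 pairs, and the point for Fas, at 120.5, is that of its short form, while the full-length form had 3.51.

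Of the 7 TRAF adaptors, 4 (57.1%) reached an RPKM of 1, against 31.0% of all genes, and none was at 0. Traf5, a relative of Traf2, had 256 reads and an RPKM of 7.16 (6.31 to 8.09), and Traf7, the member without the TRAF domain, 335 reads and 6.29 (5.64 to 7.01). By RPKM they did not differ beyond counting error, with a ratio of 1.14 (0.962 to 1.34), and by reads Traf5 was lower, at 0.764 times Traf7 (0.647 to 0.902).

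Traf6, the ubiquitin ligase of Toll-like and interleukin receptor signalling, had an RPKM of 3.02 (2.70 to 3.38). Traf3, which restrains non-canonical NF-kB, had 2.78 (2.48 to 3.11). Traf2, the adaptor that brings cIAPs to the TNF receptor complex, had 52 reads and 0.762 (0.569 to 0.999). Traf4 and the NF-kB-inducible Traf1 had 0.422 and 0.413. Without length, all 7 TRAFs exceeded 1 RPM, as did 50.9% of all genes. The TRAF-interacting genes Traf3ip1, Traf3ip2 and Traf3ip3 had 4 to 6 reads each and RPKM values from 0.0907 to 0.138.

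Among the Tnfaip genes, 5 of 8 (62.5%) reached an RPKM of 1, against 31.0% of all genes. An RPKM of 10 was reached by 3, with 8.76% of all genes past it. Tnfaip3, which encodes the ubiquitin-editing enzyme A20 that shuts off NF-kB, had 1332 reads and an RPKM of 16.5 (15.6 to 17.4). Tnfaip8, a regulator of cell survival, had 1001 reads and 16.1 (15.2 to 17.2), and Tnfaip2 752 reads and 12.5 (11.6 to 13.4). The intervals of Tnfaip3, Tnfaip8 and Tnfrsf1b, next to each other in the order, overlapped from one to the next. The ratio of Tnfaip3 to Tnfrsf1b was still above 1 by RPKM, at 1.10 (1.02 to 1.18), while by reads it was 0.939 (0.870 to 1.01).

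Tnfaip6 (TSG-6), a secreted hyaluronan-binding protein, had 43 reads and an RPKM of 1.56, and Tnfaip1 69 reads and 1.01 (0.789 to 1.28). The relatives of Tnfaip8 were scarcely detected: Tnfaip8l1 had 2 reads, Tnfaip8l2 1 and Tnfaip8l3 none.

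**Figure D4:**
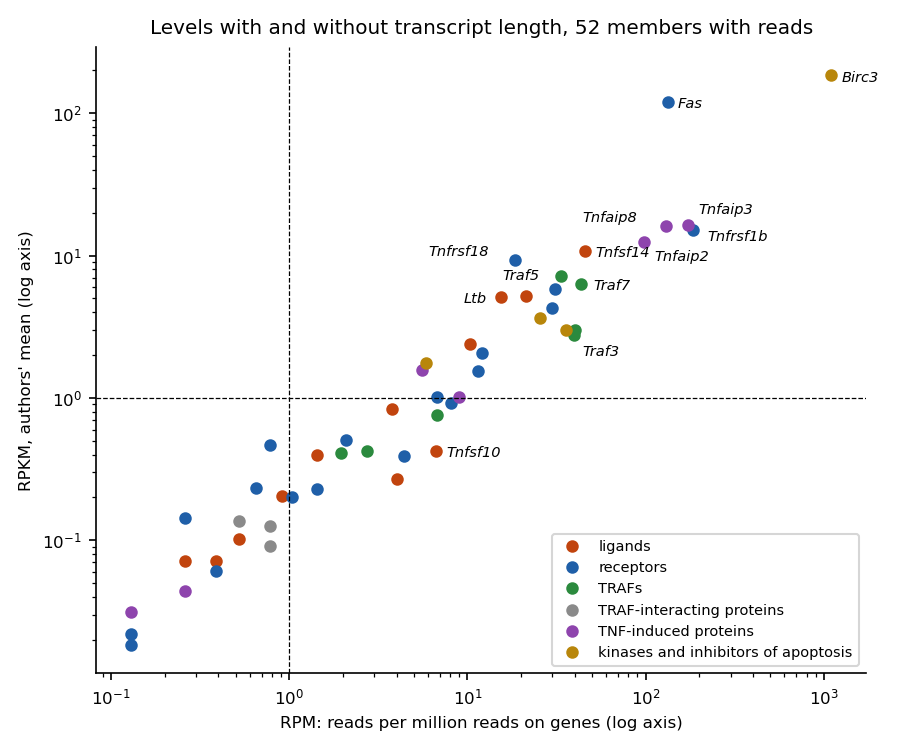
RPKM against RPM, both on log axes, for the 52 family genes with reads, coloured by role, with dashed lines at 1. Fas lies above the run of the other points, at an RPKM of 120.5 for 133 RPM, and Tnfsf10 below it, at 0.426 for 6.63 RPM.

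Length altered the order of the family. By reads, Tnfrsf1b ranked 2, Tnfaip3 3 and Fas 4, and 8 of the 10 highest genes by RPKM were also among the 10 highest by reads. Traf6 and Traf3 took the places of Tnfrsf18 and Traf5. Beyond the steps from Birc3 to Fas, from Fas to Tnfaip3 and from Tnfrsf1b to Tnfaip2, every pair of neighbours in the RPKM order of the 52 genes with reads had overlapping intervals. Overlap of 2 intervals does not show that the levels are equal.

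A receptor of the same family that the symbols leave out was higher than all 59 genes. Relt, a TNF receptor family protein described in lymphoid tissue, had 10736 reads and an RPKM of 212 (208 to 216), or 1396 RPM (NM_177073, chr7:100845848-100863413, minus strand). It exceeded Birc3 1.15-fold by RPKM (1.12 to 1.18) and Tnfrsf1b 14.1-fold by RPKM (13.4 to 14.9) and 7.57-fold by reads (7.16 to 8.0). None of its searched sequence words occurs in another gene, and the table lists 1 transcript for it. Genes overlapping the 3′ end were searched for the 59 genes only, not for Relt or the pathway genes. Relt ranked 134 among all genes.

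Relt was the 1 of 9 family ligands and receptors with other symbols (11.1%) to reach an RPKM of 1, against 31.0% of all genes. Cd40, a receptor of antigen-presenting cells, had 10 reads and 0.506 (0.243 to 0.931), Eda2r 0.134 and Ngfr 0.0515. Cd40lg, Cd27, Cd70 and Eda were listed at 0.

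The other genes of the pathway were taken from a list of 50, of which 30 (60%) reached an RPKM of 1, against the 31.0% of all genes given above, with a median of 2.15. Among adaptors and death genes, 6 of 8 did so. Casp8, the caspase that death receptors activate, led with 871 reads and an RPKM of 21.4 (19.99 to 22.9). Next came the adaptor Tradd at 8.74, the necroptosis effector Mlkl at 3.62 and Bid at 2.05. Of the searched sequence words of Casp8, 13.1% occur in another gene. Cflar, the caspase-8 inhibitor cFLIP, had 153 reads and 1.21, so that Casp8 was 17.7-fold higher by RPKM (14.9 to 21.1) and 5.69-fold by reads (4.79 to 6.80). Cflar and the adaptor Fadd, at 0.839 (0.607 to 1.13), were chosen for mention with their values in view.

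Of the ubiquitin and kinase genes, 11 of 19 (57.9%) reached an RPKM of 1, against 31.0% of all genes. Cyld, which removes the ubiquitin chains built by TRAFs and is an off-switch like A20, had 4362 reads and an RPKM of 34.8 (33.7 to 35.8). Tab2, which binds such chains, had 31.0 (29.7 to 32.3), Sharpin of the linear ubiquitin ligase 9.52 and the linear-chain hydrolase Otulin 5.86.

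In the NF-kB list, 10 of 12 genes (83.3%) reached 1, against 31.0% of all genes. By RPKM, the inhibitor Nfkbia had 3373, Nfkbiz, a nuclear regulator of NF-kB targets, 121, Nfkb2, the subunit processed in the non-canonical pathway, 60.5, and the inhibitor Nfkbie 40.8. The sheddase Adam17, which releases TNF from the membrane, had 2.50, and Adam10 2.15.

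**Figure D5:**
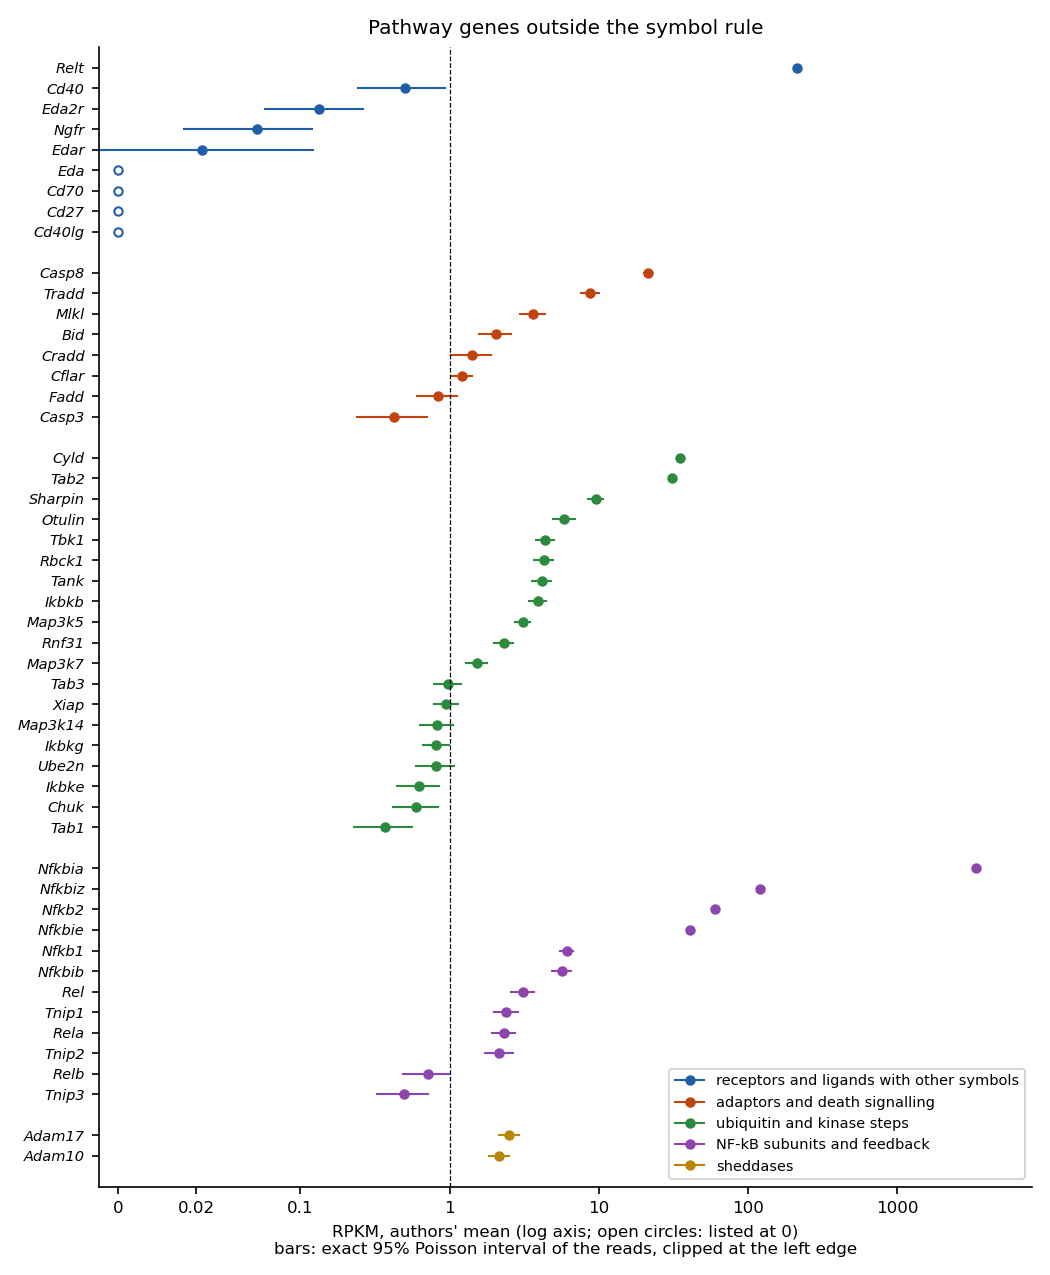
RPKM of 50 pathway genes outside the symbol rule on a log axis, grouped by list, with exact 95% Poisson intervals of the reads as bars, open circles for genes listed at 0 and a dashed line at an RPKM of 1. Relt at 212 stands alone among the receptors and ligands with other symbols, of which the other 8 lie under 1.

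The labelled cell type was checked on its markers. Of 8 eosinophil markers, 7 reached an RPKM of 1, from 18.6 for Il5ra to 230 for Alox15, with Ccr3 at 155 and Siglecf at 77.9. The peroxidase gene Epx had 0.265. All 8 summed to an RPKM of 741. Markers of other cells had reads too, and their counts stand beside the 31.0% of all genes that reached an RPKM of 1. The 7 epithelial markers all reached 1 and summed to an RPKM of 213. Among them Epcam, at 89.3, lay above Siglecf, and Krt19, at 66.7, above Il5ra. The 5 goblet markers all did and summed to 138, with Zg16 highest at 46.7. Of 6 fibroblast markers 5 did, and the 6 summed to 136, with Col3a1 highest at 66.7. Macrophage markers reached 1 in 5 of 7 and summed to 147, with Mertk at 0. Plasma cell markers did so in 3 of 5, summing to 47.8, with Jchain at 44.1 and Tnfrsf17, itself a family gene, at 0. B cell markers did so in 1 of 5 (20%), summing to 1.96 with Pax5 at 0. Mast cell markers did so in 2 of 5 (40%), summing to 4.01 with Tpsb2 at 0. Natural killer and innate lymphoid markers did so in 0 of 6, summing to 1.20 with Eomes at 0. Neutrophil markers did so in 2 of 8 (25%), S100a9 at 23.9 and S100a8 at 10.2, and summed to 35.8 with Elane and Mpo at 0. Endothelial markers did so in 1 of 4 (25%), Pecam1 at 16.3, and summed to 17.2.

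Several family genes are also expressed by these cells, and their part in the values above was not tested. In bulk RNA, fewer cells of a type and less RNA per cell cannot be told apart. Nfkbia, Tnfaip3 and Birc3 respond to NF-kB, and with no undigested sample their level in tissue and any change during digestion cannot be told apart.

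Promoters were searched for the NF-kB motif, since several of the highest genes are known NF-kB targets. RefSeq windows (GRCm38.p6) from 250 bases before to 50 after the start were matched for 50 of the 59 genes, with 57 windows. The loose motif is GGG and CC with 5 bases of any kind between them, searched on either strand with overlaps allowed. It was in 64.9% of these windows and in 50.8% of all 32851 windows. Base composition differed as well, with a mean G and C content of 57.6% in family windows and 53.8% in all. The strict form with ACTTT as the 5 bases between, the site of the kappa light chain enhancer, was in 1 family window, that of Ltb, and in 0.155% of all windows. The form with AATTT between was in none of the family's and in 0.0883% of all. The 250 bases before the start are shown for Birc3, the highest gene, and for Ltb, with every letter inside a loose match in capitals.
Birc3 (chr9:7873171-7873420, minus strand): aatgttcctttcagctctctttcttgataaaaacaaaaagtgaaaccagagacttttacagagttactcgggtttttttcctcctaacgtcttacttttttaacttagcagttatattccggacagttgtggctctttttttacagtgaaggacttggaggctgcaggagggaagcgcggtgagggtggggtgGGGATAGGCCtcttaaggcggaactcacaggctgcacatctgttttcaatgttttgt
Ltb (chr17:35194257-35194506, plus strand): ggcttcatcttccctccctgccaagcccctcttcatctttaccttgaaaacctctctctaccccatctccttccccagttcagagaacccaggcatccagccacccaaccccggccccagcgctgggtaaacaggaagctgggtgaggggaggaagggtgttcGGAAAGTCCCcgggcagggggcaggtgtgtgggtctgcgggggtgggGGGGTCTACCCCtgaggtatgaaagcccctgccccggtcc
In Ltb the strict motif is the first run of capitals, on the reverse strand and beginning 87 bases before the start, and Birc3 holds 1 loose match beginning 57 bases before it. A match describes letters in the window and says nothing of binding in these cells.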

How the data were processed

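Messenger RNA of colonic eosinophils was measured in 2 samples of 1 group. STAR 2.4.2a, DESeq and the build mm10 are named in the submitters' processing notes. The read counter, the use of strand and the handling of reads with several alignments are not given in these sources. The table has 31295 transcripts with 2 columns deposited by the authors: a mean read total and a mean RPKM. Each read total times 6 is whole within 0.001, as for a mean over 6 libraries. There were 0 columns of other samples.

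One transcript per gene symbol, that with the most reads (the first in the table on ties), was kept. Read totals times 6 gave reads, with exact Poisson or binomial intervals at 95%. The labels name no molecular identifiers, so copies of 1 molecule count as separate reads. RPKM intervals are approximate, since the libraries' depths may differ. Pathway and marker genes were matched by symbol, then by RefSeq accession (GRCm38.p6). Birc4, an older name of Xiap, was not counted apart. Shared sequence was measured by cutting the final 500 bases of a gene's longest GENCODE M21 transcript into 35-base words and taking the percent found in another gene's transcripts.

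Genes and lists were chosen with earlier results of these data known. The text gives in full the family genes at an RPKM of 10 or more, other members by role, and the 4 highest genes of each pathway list. Ligand and receptor pairs, ratios and the Fas sequences were chosen after values were seen. No test between groups exists in this design. Alternatives were other minimums, RPM, other transcripts per gene, sums over transcripts, members without shared sequence and wider membership. Tables were handled in Python 3.11.15 with pandas 2.3.3 and numpy 2.4.6, intervals computed with scipy 1.17.1 and plots drawn with matplotlib 3.10.9, and the interval, word and motif routines were tested on simulated data.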

Additional observations from a re-analysis of the deposited data

How the results depend on the processing

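With any value above 0 in place of an RPKM of 1, 52 of 59 family genes were counted, with 31.0% of all genes listed at 0. The other counts were 12 of 15 ligands, 19 of 22 receptors, 7 of 7 TRAFs and 46 of 50 pathway genes. At an RPKM of 5 they were 13 family genes, 4 receptors, 2 TRAFs and 13 pathway genes, with 14.1% of all genes past it. At 10, with 8.76% of all genes past it, they were 7 family genes, 1 ligand, 2 receptors, 0 TRAFs and 8 pathway genes. At 1 RPM they were 8 ligands (53.3%), 13 receptors (59.1%) and 7 TRAFs, with 50.9% of all genes past it. Median RPM was 4.03 in the family, 1.43 for ligands, 1.76 for receptors, 33.3 for TRAFs and 16.1 for pathway genes, which are on another scale than RPKM. Ligands above 0 had a median RPKM of 0.412. Fas had an RPKM of 3.51 on its full-length transcript, an alternative chosen after seeing the data. Adding family receptors under other symbols, also chosen after seeing the data, gave 9 of 28 receptors at an RPKM of 1, against 31.0% of all genes. The transcript with the highest RPKM, sums over transcripts and leaving out genes with shared sequence kept each count within 1.5 times. No paired analysis was possible because the table holds 1 group and no values per sample, and for the same reason no sample could be left out. Counts of 1 to 5 reads fix no order among the low genes.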
